A study of Mus musculus with 10 samples.

Results

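The genes described here are 10 immediate early and dissociation stress genes, *Fos*, *Fosb*, *Jun*, *Junb*, *Jund*, *Egr1*, *Atf3*, *Ier2*, *Dusp1* and *Hspa1a*, chosen by name from the 55487 genes of the count tables so that handling stress could be compared between cell types, genotypes and libraries. All 10 were found in both tables and passed the filter on low counts, as did 18323 genes in all. The RNA came from mammary glands of female BALB/c mice, 10 wk old and in diestrus. Both genotypes carried floxed alleles of *Cebpb*, the gene of the transcription factor C/EBPβ. WT mice lacked Cre, and CebpbΔM mice carried a Csf1r-driven Cre that deletes *Cebpb* in cells with an active *Csf1r* gene, which takes in other myeloid cells beside macrophages. The 4 groups were mammary epithelial cells (MECs) of WT mice (libraries 1 and 3) and of CebpbΔM mice (libraries 1 and 3), and F4/80-selected macrophages of WT mice (libraries 4 and 5) and of CebpbΔM mice (libraries 4 to 7). GEO's labels call the CebpbΔM samples a knockdown of C/EBPb. MECs went through collagenase, differential centrifugation, trypsin and removal of lineage-positive cells, whereas macrophages had a shorter collagenase digestion, red cell lysis and positive selection without trypsin, so cell type and isolation protocol cannot be told apart in any comparison of the cell types.

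Immediate early genes are transcribed within minutes of a stimulus without new protein synthesis, from promoters that are already loaded with transcription factors. FOS and JUN family proteins pair through leucine zippers to form the AP-1 transcription factor, EGR1 is a zinc finger factor induced by the same mitogen and stress kinases, and ATF3 is a stress-induced member of the ATF/CREB family. DUSP1 is a phosphatase that switches off the stress kinases p38 and JNK, IER2 is a nuclear protein of the immediate early set, and HSPA1A is the heat-inducible HSP70 chaperone. In solid tissues such as the mammary gland these genes are known to be switched on by enzymatic digestion and sorting, so they are widely read as a sign of handling.

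The libraries held between 25310926 and 27008166 counts in MECs and between 16935000 and 20174722 in macrophages, where 3 counts, taken as the floor for counting error alone, equal 0.111 to 0.177 counts per 1000000 counts (CPM). *Cebpb* itself was low in every library. It was at 1.01 and 1.13 CPM in WT MECs, at 2.80 and 1.63 CPM in CebpbΔM MECs, at 0.650 and 0.712 CPM in WT macrophages, and at 0.813, 0.631, 0.271 and 0.240 CPM in CebpbΔM macrophages 4 to 7. The macrophage genotypes overlapped, so the targeted gene does not check the labels in these counts. By single-cell sequencing the paper reports *Cebpb* as highly expressed in *Csf1r*-positive cells of the gland. Its longest transcript has a GC content of 67.2%, above 99.8% of genes tested, and its exon overlaps *Tmem189* on the opposite strand. The part of these in its low counts was not tested. All 12 macrophage markers were above 1 CPM in every macrophage library, with summed levels of 8297 to 16030 CPM as compared to 34.1 to 44.5 CPM in MECs, where 4 of the 12 were above 1 CPM in every library and *Adgre1*, which encodes F4/80, was at 0 in both CebpbΔM libraries. Macrophage libraries also held all 11 luminal markers, above 1 CPM, at 5908 to 11300 CPM as compared to 30365 to 38161 CPM in MECs, and all 8 basal markers, at 755 to 3247 CPM as compared to 6360 to 7922 CPM. The 6 fibroblast markers summed to 5256 to 6414 CPM in MECs and 3235 to 7577 CPM in macrophages, and the 5 endothelial markers to 83.7 to 124 and 817 to 1827 CPM, and the 5 adipocyte markers to 30.7 to 33.3 and 404 to 1106 CPM. Marker sums of T and NK cells, B cells and neutrophils were at most 14.9, 13.4 and 42.9 CPM in any library. Neutrophil sums were 20.98 to 42.92 CPM in macrophages and 0.446 to 0.847 CPM in MECs. *Csf3r* made up most of the macrophage sums, with a mean of 22.67 CPM in WT and a higher mean in CebpbΔM macrophages. *Ly6g*, a defining neutrophil marker, was at 0 in all 10 libraries. In such bulk libraries fewer cells of a type and less RNA per cell cannot be told apart.

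The stretches before the start sites of 4 of these genes are shown because they hold letters that match short elements through which such genes can be induced. In *Atf3* the only marked match is TGACG on the opposite strand, at -7 to -3 from the start. They come from RefSeq on GRCm38.p6, which gave a window of 250 bases upstream for 8 of the 10 genes and none for *Egr1* and *Ier2*. Each sequence reads 5′ to 3′ on the gene's own strand and ends at the base before the start. Capitals mark TGACG on either strand (the core of the CREB/ATF site, which TGACGTCA contains in both directions), TATAAA, and GAANNTTC (a core of the heat shock element).
Fos, chr12:85473770-85473889, plus strand: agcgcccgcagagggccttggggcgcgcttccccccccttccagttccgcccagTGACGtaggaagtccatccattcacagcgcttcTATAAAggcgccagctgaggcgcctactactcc
Atf3, chr1:191183334-191183453, minus strand: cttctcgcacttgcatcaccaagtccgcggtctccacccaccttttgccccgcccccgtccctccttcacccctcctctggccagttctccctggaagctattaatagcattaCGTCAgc
Dusp1, chr17:26508473-26508672, minus strand: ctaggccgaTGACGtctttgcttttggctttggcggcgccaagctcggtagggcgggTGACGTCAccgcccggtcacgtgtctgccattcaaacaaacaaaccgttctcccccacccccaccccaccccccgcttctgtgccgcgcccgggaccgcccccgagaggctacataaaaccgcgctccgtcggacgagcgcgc
Hspa1a, chr17:34972157-34972356, minus strand: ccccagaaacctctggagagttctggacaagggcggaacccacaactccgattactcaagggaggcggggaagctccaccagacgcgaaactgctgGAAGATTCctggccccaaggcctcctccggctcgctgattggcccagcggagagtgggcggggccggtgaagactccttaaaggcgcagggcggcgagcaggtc
TGACG occurred in the windows of 5 of the 8 genes, *Fos*, *Fosb*, *Junb*, *Atf3* and *Dusp1*, as compared to 17.8% of all 32851 RefSeq windows of this length. The full TGACGTCA occurred in that of *Dusp1* (1.55% of all windows), GAANNTTC in those of *Jun* and *Hspa1a* (6.69%), and TATAAA in that of *Fos* (12.4%). CCAAT occurred in 3 of the 8 windows (33.8% of all), TTGCNNAA in that of *Jund* (9.56%), and neither TGANTCA (6.75%) nor a CArG box (1.47%) in any of the 8. These matches only describe letters in a window. Sites farther upstream than 250 bases, and those of *Egr1* and *Ier2*, were not searched. A missing match therefore does not show that a gene lacks the element.

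The 10 genes together took 2.05 to 2.52% of all counts in MECs and 2.44 to 2.90% in macrophages, and these ranges overlap. *Fos* was among the most abundant transcripts of the gland preparations. Its rank by count lay between 2 and 6 in every library, and it held 0.542 to 0.825% of all counts. The median level of the 10 genes was 2305 CPM in MECs and 2127 CPM in macrophages, as compared to 11.6 and 14.0 CPM over all genes tested. The other 32 immediate early genes listed beside them had medians of 315 and 255 CPM, with highest levels of 4149 and 3907 CPM, so the 2 sets overlap.

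**Figure D1:**
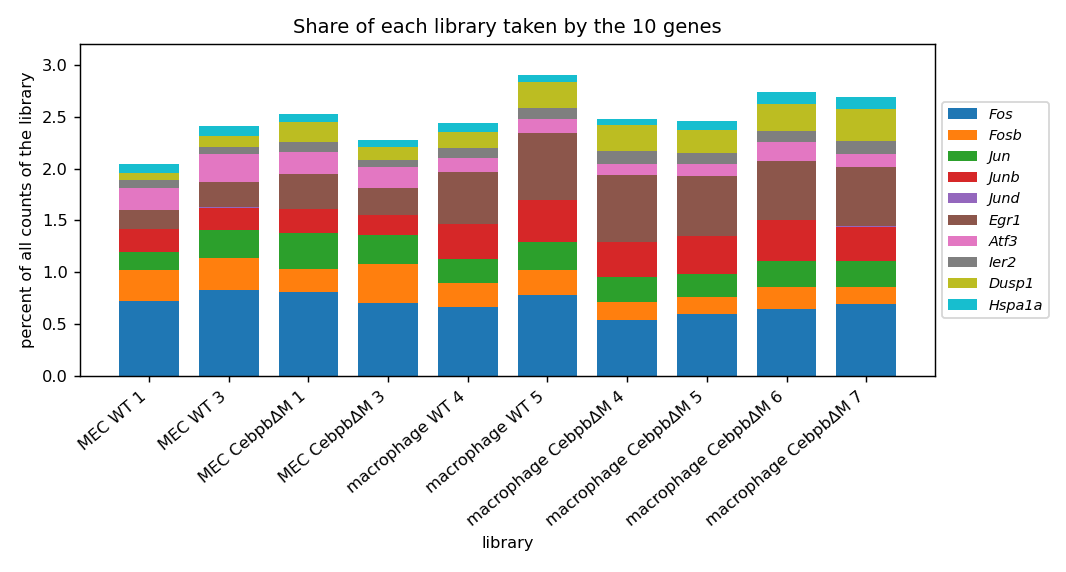
Percent of all counts of each library (vertical axis, from 0) taken by each of the 10 genes, stacked by gene, for the 4 MEC and 6 macrophage libraries. The total lies between 2.05% (MEC WT 1) and 2.90% (macrophage WT 5), with *Fos* the largest part in every library but macrophage CebpbΔM 4, where *Egr1* took 0.640% and *Fos* 0.542%.

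Levels per length, in transcripts per 1000000 transcripts (TPM), order the genes within a cell type. In MECs *Fos* was highest at 8770 ± 636 TPM (SD, n = 4) and did not overlap with *Junb*, at 3167 ± 276 TPM. *Atf3* (2829 ± 392), *Jun* (2274 ± 618), *Egr1* (1541 ± 369), *Ier2* (1394 ± 317), *Fosb* (1308 ± 289), *Dusp1* (977 ± 389) and *Hspa1a* (735 ± 99.9) followed, and each of these overlapped with its neighbor in the order. In macrophages *Fos* was again highest at 7771 ± 1081 TPM (SD, n = 6), above *Junb* at 5637 ± 612 TPM in all 6 libraries although their ranges overlap. *Egr1* came next at 3629 ± 391 TPM, apart from *Junb* above it and from *Jun* below it, and *Jun* (2119 ± 182), *Dusp1* (2040 ± 386) and *Ier2* (2006 ± 195) overlapped. *Atf3* followed at 1717 ± 312 TPM and was apart from *Fosb* at 881 ± 167 TPM. *Jund*, the JUN member that is expressed in most resting cells, was by far the lowest in both, at 37.6 ± 9.48 TPM in MECs and 24.2 ± 3.56 TPM in macrophages. Its gene in the count tables starts 1210 bases downstream of the RefSeq start. That stretch is therefore in neither its counts nor the exonic length of 1668 nt used for its TPM.

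Shares of the AP-1 members were compared within each library. Of the summed TPM of *Fos*, *Fosb*, *Jun*, *Junb* and *Jund*, *Fos* took 54.0 to 58.1% in MECs and 44.2 to 50.4% in macrophages, and *Junb* took 18.5 to 22.6% and 31.8 to 36.8%. The ratio of FOS family to JUN family TPM was 1.58 to 2.05 in the 4 MEC libraries and 0.980 to 1.23 in the 6 macrophage libraries, so it did not overlap between the cell types. Such a gap is common in these data, since the ratio did not overlap between the cell types for 37.8% of all pairs of tested genes.

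**Figure D2:**
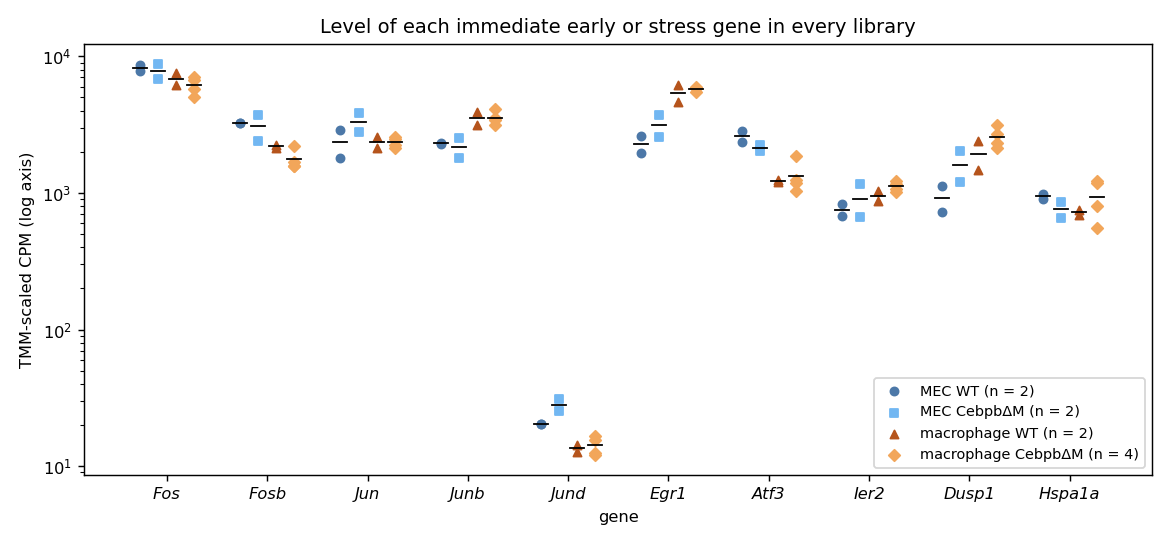
Level of each gene in every library, in TMM-scaled CPM on a log axis. Points are libraries, marked by group, and black bars are group means. *Egr1* and *Junb* lie higher and *Fosb*, *Atf3* and *Jund* lower in all macrophage libraries than in all MEC libraries.

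Macrophages were compared with MECs within each genotype by edgeR's quasi-likelihood test, in a fit of all 10 libraries. In WT mice *Egr1* and *Dusp1* were higher and *Atf3* lower in macrophages, 3 of the 10 genes, as compared to 25.5% of all genes called in this comparison (14.8% higher and 10.7% lower). In CebpbΔM mice *Egr1* and *Junb* were higher and *Fosb*, *Atf3* and *Jund* lower, 5 of the 10 genes, as compared to 33.7% of all genes called (18.9% higher and 14.7% lower), and of these only *Jund* was called without MEC CebpbΔM library 3. The median log2 fold change of the 10 genes was -0.13 in WT and -0.03 in CebpbΔM mice, beside 0.06 and 0.07 over all genes tested. The called genes thus lay in both directions. The libraries of both cell types did not overlap for 9 of the 10 genes in WT and 7 of the 10 in CebpbΔM mice, as compared to 65.1% and 52.9% of all genes.

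*Egr1*, the zinc finger factor of the group, had the largest log2 fold change of the 10 in WT mice, whereas that of *Jund* was larger in CebpbΔM mice. *Egr1* was at 1951 and 2589 CPM in WT MECs, 3689 and 2558 CPM in CebpbΔM MECs, 4592 and 6157 CPM in WT macrophages, and 5936, 5488, 5880 and 5846 CPM in CebpbΔM macrophages 4 to 7. Every macrophage library was above every MEC library. The log2 fold change was 1.24 ± 0.23 (SE, adjusted *P* = 0.00294) in WT and 0.89 ± 0.21 (adjusted *P* = 0.00704) in CebpbΔM mice, and the second call was lost without MEC CebpbΔM library 3 (adjusted *P* = 0.0702). In WT mice the call was kept under every alternative run.

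*Junb*, the JUN member that restrains JUN in several settings, was at 2332 and 2277 CPM in WT MECs, 2536 and 1808 CPM in CebpbΔM MECs, 3142 and 3935 CPM in WT macrophages, and 3133, 3549, 4096 and 3405 CPM in CebpbΔM macrophages. All macrophage libraries were above all MEC libraries. Its log2 fold change was 0.71 ± 0.19 (SE, adjusted *P* = 0.0163) in CebpbΔM mice and 0.62 ± 0.22 in WT mice, where it missed the threshold (adjusted *P* = 0.0597). The CebpbΔM call was lost without MEC CebpbΔM library 3 (adjusted *P* = 0.134), and the WT difference passed by DESeq2 (adjusted *P* = 0.0418), with scaling by library totals (0.00792) or without macrophage WT library 4 (0.048).

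*Dusp1*, the phosphatase, was at 722 and 1117 CPM in WT MECs, 2026 and 1197 CPM in CebpbΔM MECs, 1482 and 2392 CPM in WT macrophages, and 2331, 2121, 2719 and 3155 CPM in CebpbΔM macrophages. MEC CebpbΔM library 1 stood above macrophage WT library 4, so the cell types overlap. The log2 fold change was 1.07 ± 0.33 (SE, adjusted *P* = 0.0357) in WT and 0.68 ± 0.29 (adjusted *P* = 0.0979) in CebpbΔM mice. The WT call was lost without any of MEC WT library 1, MEC WT library 3 or macrophage WT library 5, with adjusted *P* = 0.224, 0.0502 and 0.208, and the CebpbΔM difference passed with scaling by library totals (adjusted *P* = 0.0457).

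*Atf3*, the stress-induced ATF/CREB member, ran the other way. It was at 2362 and 2859 CPM in WT MECs, 2251 and 2018 CPM in CebpbΔM MECs, 1207 and 1242 CPM in WT macrophages, and 1029, 1173, 1863 and 1239 CPM in CebpbΔM macrophages. All macrophage libraries were below all MEC libraries, with CebpbΔM library 6 the highest of them. Its log2 fold change was -1.09 ± 0.27 (SE, adjusted *P* = 0.0119) in WT and -0.69 ± 0.22 (adjusted *P* = 0.0343) in CebpbΔM mice. The WT call was lost without MEC WT library 3, macrophage WT library 4 or macrophage WT library 5 (adjusted *P* = 0.0835, 0.0606 and 0.0685), and the CebpbΔM call without either MEC library or without macrophage library 4, 5 or 7 (adjusted *P* of 0.0624 to 0.183).

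*Fosb*, the FOS relative with a longer-lived truncated form, was at 3233 and 3246 CPM in WT MECs, 2416 and 3710 CPM in CebpbΔM MECs, 2131 and 2247 CPM in WT macrophages, and 1586, 1573, 2203 and 1688 CPM in CebpbΔM macrophages. It was lower in all macrophage libraries, with a log2 fold change of -0.80 ± 0.20 (SE, adjusted *P* = 0.0108) in CebpbΔM mice and -0.57 ± 0.24 (adjusted *P* = 0.109) in WT mice. The CebpbΔM call was lost without MEC CebpbΔM library 3 (adjusted *P* = 0.151). *Jund* was lower in all macrophage libraries too, at 12.04 to 16.67 CPM as compared to 20.34 to 30.79 CPM in MECs. Its log2 fold change was -0.98 ± 0.21 (adjusted *P* = 0.00395) in CebpbΔM and -0.59 ± 0.25 (adjusted *P* = 0.107) in WT mice.

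The remaining 4 genes passed the threshold in neither genotype. *Fos* was at 6859 to 8845 CPM in MECs and 5022 to 7499 CPM in macrophages, with log2 fold changes of -0.27 ± 0.22 (SE) in WT and -0.36 ± 0.19 in CebpbΔM mice. *Jun* was at 1809 to 3834 CPM in MECs and 2121 to 2585 CPM in macrophages, where it varied less, with log2 fold changes of 0.01 ± 0.25 and -0.50 ± 0.21 (adjusted *P* = 0.0953 for the latter). *Ier2* ran from 663 to 1155 CPM in MECs and from 875 to 1229 CPM in macrophages, with log2 fold changes of 0.33 ± 0.25 and 0.30 ± 0.22, and the latter was 0.75 (adjusted *P* = 0.0385) without MEC CebpbΔM library 1 and -0.05 without library 3. *Hspa1a* ran from 660 to 987 CPM and from 557 to 1214 CPM, with log2 fold changes of -0.39 ± 0.33 and 0.31 ± 0.29.

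**Figure D3:**
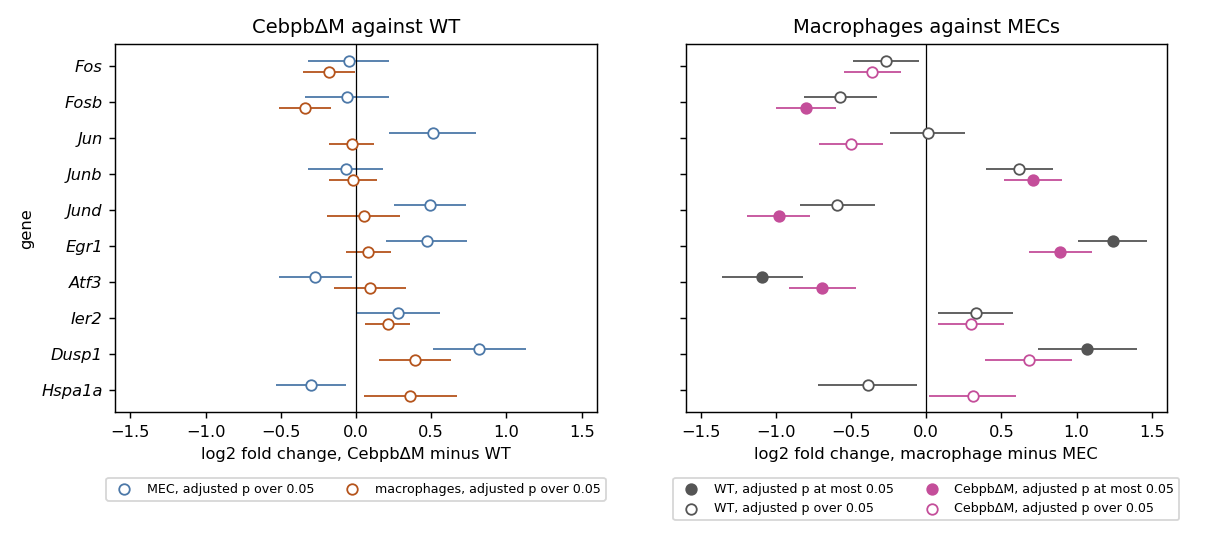
Log2 fold changes of the 10 genes with standard errors (bars). Left, CebpbΔM minus WT in MECs and in macrophages, where all points are open because every adjusted *P* was over 0.05. Right, macrophage minus MEC in WT and in CebpbΔM mice, where filled points passed the threshold, 3 in WT and 5 in CebpbΔM mice.

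Across all 10 libraries *Egr1* and *Junb* were higher, and *Fosb*, *Atf3* and *Jund* lower, in every macrophage library than in every MEC library. These are 2 and 3 of the 10 genes, as compared to 19.8% and 16.5% of all genes tested, and 36.2% in either direction. The size and the sign of single differences rest on how the cell types are scaled. When the 9 reference genes set the scale in place of TMM, the median of all genes moved from 0.06 to 0.61 in WT and from 0.07 to 0.58 in CebpbΔM mice, and calls over all genes shifted from 2703 higher and 1961 lower to 5382 and 860 in WT, and from 3472 and 2702 to 5935 and 1075 in CebpbΔM mice. Under this scale *Egr1*, *Junb*, *Dusp1* and *Ier2* were called higher in both genotypes and *Hspa1a* in CebpbΔM mice, no gene of the group was called lower, and *Fos* turned to 0.29 and 0.17. The reference genes are themselves no fixed scale here, since *Rplp0*, *Ywhaz* and *Ppia* were lower in macrophages by TMM (log2 fold changes of -1.27, -1.19 and -0.88 in WT). Luminal and basal markers were lower and macrophage and endothelial markers higher in the macrophage libraries, with the values given above, and their part in these differences was not tested.

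Ratios between genes within a library do not depend on the scaling between libraries. Of the 45 pairs of the 10 genes, 20 had ratios that did not overlap between the 4 MEC and the 6 macrophage libraries, near the share of 37.8% among all pairs of tested genes. Between the genotypes the count was 25 of 45 in MECs and 12 of 45 in macrophages, as compared to 31.2% and 18.1% of all pairs, and the pairs are not independent since each gene enters 9 of them. The ratio of *Jun* to *Egr1* was narrow within each cell type, at 0.927 to 1.11 in MECs and 0.375 to 0.462 in macrophages. *Fos* stood at 3.34 to 3.82 times *Junb* in MECs and at 1.6 to 2.06 times in macrophages. *Egr1* over *Atf3* was 0.826 to 1.64 in MECs and 3.16 to 5.77 in macrophages. These pairs were picked after their values were seen, and no test was made on them.

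**Figure D4:**
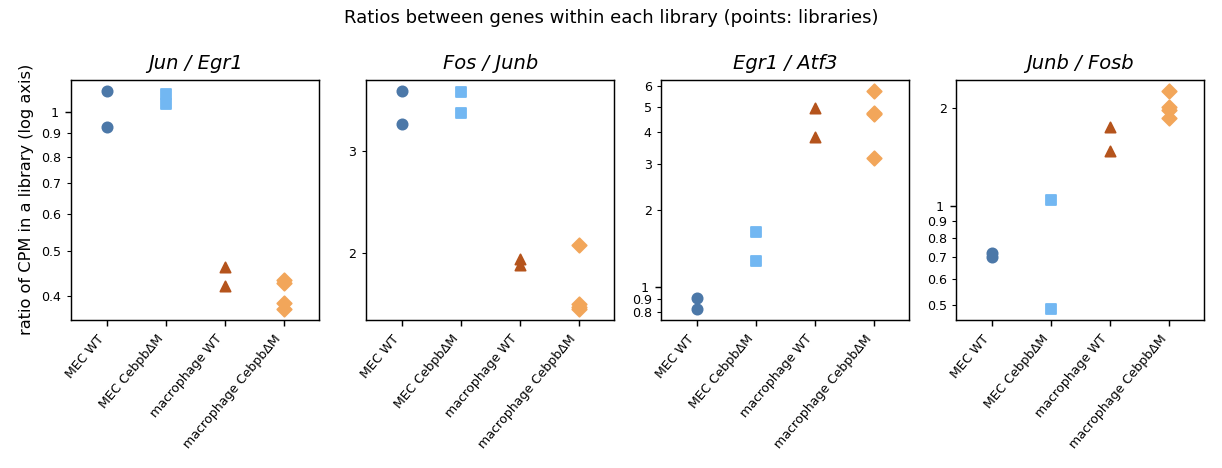
Ratio of the CPM of 2 genes within each library (log axes) for 4 pairs of genes, by group. Each point is a library. MEC and macrophage libraries do not overlap in any of the 4 panels, for example 0.927 to 1.11 as compared to 0.375 to 0.462 for *Jun* over *Egr1*.

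The genotypes were compared within each cell type to ask whether the stress genes differed between CebpbΔM and WT preparations. In MECs none of the 10 genes passed the threshold by edgeR's quasi-likelihood test, as compared to 0.051% of all 15698 genes tested. None passed by the likelihood ratio test or DESeq2, which called 179 and 161 genes in all. At an unadjusted *P* under 0.05 there was 1 gene, *Dusp1*, as compared to 5.42% of all genes. *Dusp1* was higher in both CebpbΔM libraries, with a log2 fold change of 0.82 ± 0.31 by edgeR's quasi-likelihood test (SE, adjusted *P* = 0.656), and passed only without CebpbΔM library 3 (adjusted *P* = 0.0366). *Jun* (0.51 ± 0.29), *Jund* (0.49 ± 0.24) and *Egr1* (0.47 ± 0.27) also had positive values, and *Hspa1a* (-0.30 ± 0.23) and *Atf3* (-0.27 ± 0.24) negative ones. *Fos*, *Fosb* and *Junb* were within 0.07 of 0, with standard errors of 0.25 to 0.28. The libraries of the genotypes did not overlap for 4 of the 10 genes, *Jund* and *Dusp1* upward (13.6% of all genes) and *Atf3* and *Hspa1a* downward (14.5%), as compared to 28.2% of all genes in either direction.

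In macrophages none of the 10 genes passed the threshold by the quasi-likelihood test, by the likelihood ratio test or by DESeq2, and none had an unadjusted *P* under 0.05, as compared to 8.63% of all 17772 genes tested. The quasi-likelihood test called 0% of all genes here, and the likelihood ratio test and DESeq2 called 138 and 201 genes in all. The largest values were *Dusp1* at 0.39 ± 0.24, *Hspa1a* at 0.36 ± 0.31 and *Fosb* at -0.34 ± 0.17 (log2 fold change and SE, adjusted *P* = 0.696, 0.805 and 0.630). *Jun* and *Junb* were at -0.03 ± 0.15 and -0.02 ± 0.16. For all 10 genes the WT libraries overlapped with the CebpbΔM libraries, as compared to 18.6% of all genes that did not overlap. Among macrophage libraries those of CebpbΔM mice had lower luminal marker sums (5908 to 8083 CPM as compared to 11079 and 11300 CPM in WT), higher macrophage marker sums (10819 to 16030 as compared to 8297 and 9380 CPM), and basal sums of 755 to 3247 CPM as compared to 821 and 1276 CPM, and the part of these in the values above was not tested.

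The interaction, which asks whether the genotypes differ by another amount in macrophages than in MECs, called none of the 10 genes, and 0% of all 18323 genes by the quasi-likelihood test. None of the 10 had an unadjusted *P* under 0.05, as compared to 5.19% of all genes. The likelihood ratio test and DESeq2 called none of the 10, and 53 and 27 genes in all. The largest interaction values were 0.70 ± 0.43 for *Hspa1a* (SE, adjusted *P* = 0.990) and -0.50 ± 0.33 for *Jun* (adjusted *P* = 0.990). The *Hspa1a* value was 0.22 with the replicate number as a block, where the genotype difference was negative in both cell types (-0.31 in MECs and -0.13 in macrophages).

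Libraries of a group differed from each other in these genes. MEC CebpbΔM library 1 was above library 3 for 8 of the 10 genes, macrophage WT library 5 was above library 4 for 9, and macrophage CebpbΔM library 6 was above its group mean for 9 and library 5 below it for 9. No share over all genes was computed beside these counts or the pairs of genes below, so they only describe the 10 genes. As the mean of log2 CPM over the 10 genes, MEC CebpbΔM libraries 1 and 3 deviated by 0.152 and -0.152 from their group mean, macrophage WT libraries 5 and 4 by 0.121 and -0.121, MEC WT libraries 3 and 1 by 0.098 and -0.098, and macrophage CebpbΔM libraries 4 to 7 by -0.156, -0.132, 0.206 and 0.082. *Fos* followed the mean of the other 9 genes most closely over the 10 libraries, after group means were taken out (Pearson's r = 0.90), followed by *Dusp1* (0.80), *Jun* (0.78), *Junb* (0.77), *Atf3* (0.71), *Egr1* (0.68), *Hspa1a* (0.60) and *Ier2* (0.33). *Fosb* (-0.05) and *Jund* (-0.06) did not follow it. Of the 45 pairs of genes 31 had a positive r, with a median of 0.49 and a range from -0.65 (*Fosb* with *Ier2*) to 0.92 (*Jun* with *Dusp1* and *Egr1* with *Dusp1*). These r values describe 10 libraries with group means removed, where values of genes share the library, its depth and its scaling, and in groups of 2 the deviations of both libraries are mirror images.

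**Figure D5:**
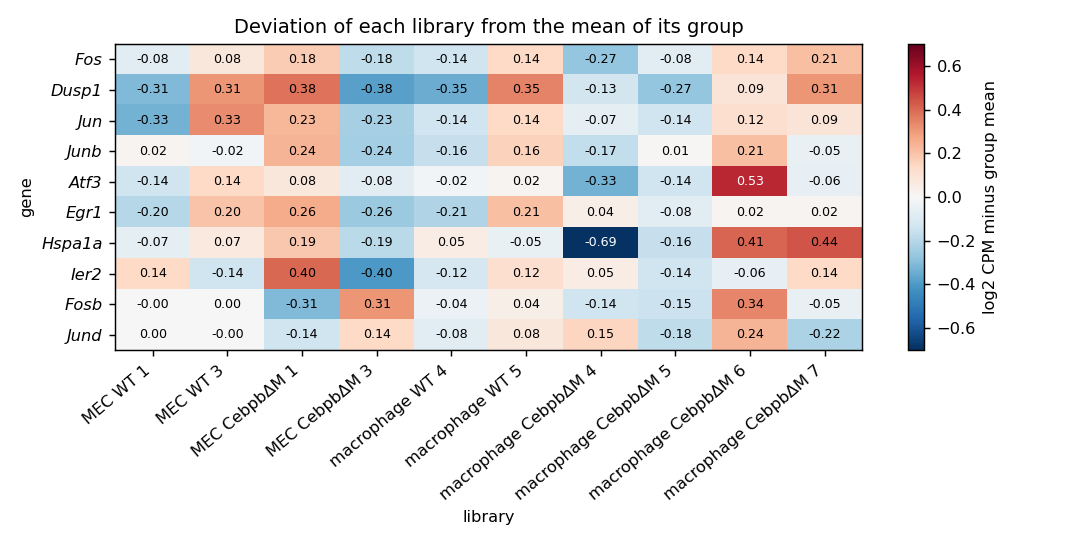
Deviation of each library from the mean of its group in log2 CPM, by gene (rows, ordered by how closely a gene followed the mean of the other 9) and library (columns). Red is above and blue below the group mean, and the printed values give the deviation. *Hspa1a* in macrophage CebpbΔM library 4 (-0.69) and *Atf3* in library 6 (0.53) are the extremes.

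The SD of log2 CPM within groups had a median of 0.253 (range 0.189 to 0.396) over the 10 genes. This was below the 0.367 over all genes tested and slightly above the 0.237 over the 359 genes of highest mean level. Those 359 were set by a lower limit on level alone, which *Jund* did not reach, so they are not matched to the 10. *Hspa1a* (0.396) and *Dusp1* (0.390) varied most. *Hspa1a* in CebpbΔM macrophages was at 557, 803, 1192 and 1214 CPM in libraries 4 to 7, a spread wider than that of both WT libraries (749 and 695 CPM). The 5 genes outside the group whose centered values were most like the mean of the 10 over the 10 libraries were *Gm16183* (r = 0.991), *Tmem221* (0.973), *Gm42928* (0.968), *Akr1c13* (0.968) and *Gm17196* (0.966). They were at 0.730 to 89.9 CPM on average in MECs and 1.10 to 54.4 CPM in macrophages. These genes are the top of 18313 ranked by r over only 10 libraries, so high values can follow from the ranking itself. Shared regulation was not tested. Among the listed genes, the other immediate early genes had a median r of 0.54 with that mean (-0.36 to 0.94), beside 0.01 over all other genes tested. Medians were 0.25 for the early inflammatory genes, 0.23 for the AP-1 relatives and 0.18 for the other heat shock chaperones. Genes of the integrated stress response had 0.06, upstream kinases and factors 0.05, and reference genes 0.02. The other dual-specificity phosphatases had -0.18.

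Other genes of the same pathways were taken from fixed lists, and no gene of these lists passed the threshold in either genotype comparison by edgeR's quasi-likelihood test. The counts below can be read beside the 25.5% and 33.7% of all genes called between the cell types in WT and CebpbΔM mice. Between the cell types, of the 10 AP-1 relatives 2 were higher and 3 lower in macrophages in WT, and 3 were higher and 3 lower in CebpbΔM mice. *Fosl1*, the FRA-1 subunit, was lower (log2 fold change -2.80 ± 0.44, SE, in WT and -3.01 ± 0.35 in CebpbΔM mice), as was *Maff* (-1.29 ± 0.26 and -1.20 ± 0.22), and *Batf3*, a factor of dendritic cells and other leukocytes, was higher (3.68 ± 0.53 and 3.23 ± 0.48), as was *Batf* (1.09 ± 0.29 and 1.41 ± 0.27). Of the other immediate early genes 31 of 32 were tested, and 3 were higher and 7 lower in WT, 7 and 11 in CebpbΔM mice. *Sgk1*, a hormone and stress-regulated kinase, was at 3801 ± 122 CPM (SD, n = 2) in WT MECs and 1027 ± 287 CPM (n = 2) in WT macrophages (log2 fold change -1.89 ± 0.28), *Ccn2*, a matrix protein and YAP target, had a log2 fold change of -2.40 ± 0.32, and *Gadd45a*, a DNA damage gene, -2.12 ± 0.36.

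Of the 8 other dual-specificity phosphatases 1 was higher and 5 were lower in WT, 1 and 6 in CebpbΔM mice. Unlike *Dusp1*, *Dusp4*, *Dusp7* and *Dusp10* were lower in macrophages, with log2 fold changes of -2.30 ± 0.32, -2.23 ± 0.31 and -2.13 ± 0.32 in WT, and *Dusp2*, a phosphatase of activated immune cells, was the gene that was higher (3.11 ± 0.53). Of the 16 other heat shock chaperones none was higher and 9 were lower in WT, 1 and 5 in CebpbΔM mice. *Hspb1*, the small heat shock protein HSP27, had log2 fold changes of -1.44 ± 0.28 and -1.85 ± 0.23, *Hspe1*, the mitochondrial cochaperonin, of -1.20 ± 0.31 and -1.16 ± 0.25, and *Cryab* was lower in WT (-1.09 ± 0.20). The exception was *Hspa1b*, the copy of *Hspa1a*, which was higher in CebpbΔM macrophages than in CebpbΔM MECs (1.27 ± 0.29, adjusted *P* = 0.00567).

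Of the 20 kinases and factors upstream of these genes, 5 were higher and 3 lower in macrophages in each genotype. *Srf*, the serum response factor, was lower (log2 fold change -1.66 ± 0.31 in WT and -1.21 ± 0.26 in CebpbΔM mice), its partner *Elk3* was higher (3.40 ± 0.35 and 3.33 ± 0.33), *Mapk14*, the p38α kinase, was higher (1.31 ± 0.31 and 1.34 ± 0.28), and *Map2k4*, a kinase above JNK and p38, was lower (-1.26 ± 0.24 and -1.52 ± 0.19). *Mapk11*, another p38 kinase, was higher in WT (1.39 ± 0.33) and at 0.49 ± 0.29 in CebpbΔM mice, where it did not pass. Of the 15 early inflammatory genes 10 were higher in macrophages in WT and 11 in CebpbΔM mice, and none was lower. *Cd83* was at 1.78 ± 0.395 CPM (SD, n = 2) in WT MECs and 278 ± 32.9 CPM (n = 2) in WT macrophages, *Il1b* at 0.444 ± 0.227 and 45.2 ± 0.157 CPM, and *Ccl3*, at 0.0404 ± 0.00012 CPM, was under the floor of 3 counts in WT MECs and at 11.7 ± 4.87 CPM in WT macrophages. *Ccl4* was at 0.182 ± 0.202 CPM (n = 2) in CebpbΔM MECs and at 28.2 ± 5.61 CPM (n = 4) in CebpbΔM macrophages. Of the 11 genes of the integrated stress response, the pathway in which ATF4 drives ATF3, none was higher and 3 were lower in WT, 1 and 6 in CebpbΔM mice. *Atf4* itself was lower (-1.34 ± 0.24 and -0.98 ± 0.20), as were *Chac1* (-3.92 ± 0.86 and -5.47 ± 0.69) and *Trib3* (-1.32 ± 0.31 and -2.70 ± 0.25), and *Sesn2* was lower in CebpbΔM mice (-1.64 ± 0.25).

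The 10 genes share a compact structure that their choice did not use. On GRCm38, as in the count tables, 5 of the 10, *Jun*, *Junb*, *Jund*, *Ier2* and *Hspa1a*, have a single exon, as compared to 12.56% of all genes tested. The median span is 3286.5 nt as compared to 17455 nt, and 8 of the 10 span less than 10000 nt, as compared to 36.12% of all genes tested. *Fos*, chr12:85473890-85477273, has 4 exons within 3384 nt. *Atf3*, chr1:191170296-191218039, and *Dusp1*, chr17:26505590-26562128, are the long exceptions at 47744 and 56539 nt, since the tables include transcripts that start 34706 and 53656 bases upstream of the RefSeq starts shown above. The GC content of the longest transcript has a median of 56.6% as compared to 49.6% over all genes tested, and the highest, 67.1% for *Jund*, lies above 99.8% of these genes. The *Jund* gene of the tables, chr8:70698949-70700616, starts 1210 bases downstream of the RefSeq start, so that stretch entered neither its counts nor its exonic length of 1668 nt. The part of this and of its GC content in the low level of *Jund* was not tested.

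Several of these genes overlap others on the opposite strand. *Gm20481*, of 564 nt, lies across the exon of *Hspa1a* and had 43.8 to 53.2% as many counts as *Hspa1a* in the 10 libraries. *Junos* had 16 to 18.4% as many counts as *Jun*, and *Gm11175* had 25.7 to 37.2% as many as *Jund*. Each of these shares overlapped between MECs and macrophages, and the partner's log2 share of the library followed that of its gene over the 10 libraries (Pearson's r = 0.98, 0.97 and 0.90), whereas *Ergic1*, which overlaps *Dusp1*, had r = -0.37. *Cebpb* likewise overlaps *Tmem189*. The counts were made with a reverse-stranded setting, and whether the library kit marks strand is not given in the sources used here. If it does not, the counts of every gene hold only part of its reads, and reads of a gene and its antisense partner cannot be told apart.

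*Hspa1a*, chr17:34969190-34972156, also has a near-identical copy in *Hspa1b*, chr17:34956436-34959238. Their promoters differ at 3 of the 250 bases before the start, and 38.1% of all 150-nt windows of the *Hspa1a* transcript occur in *Hspa1b* without a mismatch. Read pairs that map equally well to both fall below the mapping quality of 10 required for counting, so the levels of both genes are uncertain. *Hspa1b* held 7.78 to 9.07% of the counts of both genes in MECs and 14.0 to 16.4% in macrophages, and these ranges do not overlap.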

How the data were processed

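The 10 member genes, the gene lists and the tests were chosen with earlier results of these data known. The authors trimmed the reads with Trimmomatic, mapped them to GRCm38 with HISAT2, as the submitters' processing notes also list, and counted read pairs with featureCounts (version 1.6.2, Ensembl release 100, both ends mapped, mapping quality of at least 10, reverse-stranded), per the file headers. The authors deposited raw counts, whole numbers that were not normalized. A gene entered a fit if it was at least 300 nt long and exceeded 1 CPM in 2 or more of its libraries. TMM scaling and the quasi-likelihood test of edgeR (version 4.0.16, R version 4.3.3) were used, in place of the study's likelihood ratio test, with *P*-values adjusted by Benjamini-Hochberg across every gene of the fit and called at 0.05. Genotypes were fitted within each cell type. Cell types and the interaction were fitted over all 10 libraries. TMM scaling across the cell types assumes that most genes do not differ between them. Log2 CPM used a prior count of 2, and TPM used the exonic lengths of the tables. Labels do not say whether libraries of a group came from separate animals, so *P*-values measure the spread between these libraries, which may be technical.

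Alternatives were DESeq2 (version 1.42.0, independent filtering off), the likelihood ratio test, RLE or no composition scaling, no low-count filter, the replicate number as a block, all 10 libraries in one fit, replicates 4 and 5 only, scaling by reference genes, a prior count of 0.5, and each library left out in turn. The fits were also run on simulated counts with changes of known size. These counts were drawn from the fitted model, so the run checks the code and not how the tests behave on these data. Named genes are the 10 members, list genes past the threshold in a genotype comparison, the 3 of largest change past it per list in a cell type comparison, and the 5 most alike genes. Promoters and motif letters came from RefSeq windows on GRCm38.p6. Symbols were matched for 55141 of 55487 genes. Depth was 16935000 to 27008166 counts, of which *Cebpb* had only 4 to 69 in a library. Python (version 3.11.15), pandas (version 2.3.3), NumPy (version 2.4.6) and matplotlib (version 3.10.9) were used.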

Additional observations from a re-analysis of the deposited data

How the results depend on the processing

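Of 630 values of the 10 genes under alternatives, 562 kept their direction and side of the threshold, 39 turned in sign, 18 lost and 11 gained a call; of 528 values of the named list genes 508 kept both and 20 lost the call. The cause of these changes was not tested. Fits that leave a group with 1 library assume that it varies like the others, and with 2 libraries in 3 of the 4 groups small differences were not detectable.

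Calls over all genes in the MEC genotype comparison moved from 8 to 179 by the likelihood ratio test, 161 by DESeq2, 67 without the filter, and 0 with scaling by library totals and with all 10 libraries in one fit, and ranged from 2 to 337 with 1 library left out. The 10 genes gave 0 to 1 call there. In the macrophage genotype comparison they moved from 0 to 138 and 201 by these tests, and in the interaction from 0 to 53 and 27, with 0 to 1 when a library was left out. Between the cell types, leaving out 1 library gave 1 to 3 of the 10 genes and 2456 to 4588 genes in all in WT (main 3 and 4664), and 1 to 5 and 3496 to 6380 in CebpbΔM mice (main 5 and 6174).

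Replicate numbers were shared by WT and CebpbΔM libraries, but only 2 pairs per cell type exist and no label says what a number marks. The correlation of deviations between libraries of the same number was 0.106 in MECs and 0.129 and -0.086 in macrophages. In groups of 2 the deviations are mirror images, so these values cannot decide whether a number marks a shared batch. The main fits did not use the number. With the number as a block, 205 genes were called in MECs, 12 in macrophages and 1 in the interaction, none of them among the 10, and in macrophages *Atf3* turned to -0.18 and *Hspa1a* to -0.13. With libraries 4 and 5 only, these were -0.16 and -0.10.

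Other log2 fold changes that turned were *Junb* in the macrophage genotype comparison with all libraries in one fit (0.003) and in the interaction with library totals (-0.0031), *Jun* between the WT cell types by DESeq2 (-0.03), RLE scaling (-0.03) and without the filter (-0.01), and, with scaling by reference genes, *Fos* (0.29 in WT, 0.17 in CebpbΔM mice), *Hspa1a* in WT (0.16) and *Jun* in CebpbΔM mice (0.03). With 1 library left out, the MEC genotype values ranged from -0.22 to 0.09 for *Fos*, -0.43 to 0.24 for *Fosb*, -0.31 to 0.13 for *Junb* and -0.14 to 0.61 for *Ier2*. Those in macrophages ranged from -0.17 to 0.12 for *Jun*, -0.18 to 0.15 for *Junb*, -0.04 to 0.13 for *Jund*, -0.12 to 0.31 for *Egr1* and -0.12 to 0.19 for *Atf3*. The cell type values ranged from -0.29 to 0.38 for *Jun* in WT and from -0.05 to 0.75 for *Ier2* in CebpbΔM mice. The interaction ranged from -0.26 to 0.11 for *Fos*, -0.51 to 0.11 for *Fosb*, -0.13 to 0.35 for *Junb*, -0.38 to 0.42 for *Ier2* and -0.74 to 0.03 for *Dusp1*.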
